A study of Vitis amurensis with 6 samples.

Results

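This account covers the 119 genes whose expression was at least 4 times lower in cold-treated grapevine callus overexpressing VaWRKY12 than in the control callus, of 16645 genes measured. Callus is undifferentiated plant tissue grown on culture medium, here from Vitis amurensis, the Amur grape. The overexpressing group, labelled 4W12-OE, and the control group, labelled 4EV with the genotype Envelope, held 3 libraries each. Petiole segments of both were transformed, selected on B5 medium with kanamycin at 20 mg per litre and kept in the dark at 25 °C. Both were held at 4 °C for 24 hours, 15 days after transfer to new medium, so that the groups share the cold and the selection and no library was kept warm. The labels do not state the promoter of the transgene, the number of callus lines or whether replicates were separate cultures, so the spread given is that between these samples and may be technical.

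WRKY proteins are plant transcription factors that carry a conserved WRKY domain and bind promoter motifs known as W boxes. Members of the family activate or repress their targets and are best known for roles in defence and in responses to stress, cold included. A gene that is lower when a factor is overexpressed may be its target or lie further downstream, and a comparison of messenger RNA levels does not separate the cases. The series addressed which genes respond to VaWRKY12 under cold. The table names its genes only by identifiers of the form GSVIVT, with positions of coding exons, and no annotation was used here. Members are therefore described by level, structure and position, and their functions are not stated. For the same reason the row of VaWRKY12 itself and marker genes of callus were not identified, so the labels could not be checked against them.

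The libraries held 9139429 to 14966502 reads in 4W12-OE and 8795632 to 10647037 reads in 4EV. Across tested genes, log2 levels correlated at 0.973 to 0.987 among 4W12-OE libraries, 0.980 to 0.986 among 4EV libraries and 0.927 to 0.969 between the groups. Of the 4W12-OE libraries, replicate 3 stood farthest from 4EV (0.927 to 0.950) and replicate 2 nearest (0.958 to 0.969). Fractions of a read occurred in 39.8% of all genes in at least 1 library and in 48 of the 119 members (40.3%), and such genes may share reads with other gene models.

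Levels are CPM, the reads of a gene per 1e6 reads of its library. A gene was a member if its highest 4W12-OE value lay below its lowest 4EV value, its 4EV mean was 2 CPM or more, and the 4EV mean over the 4W12-OE mean, each with 0.3 CPM added, was 4 or more. Of all genes, 2425 (14.6%) had non-overlapping groups with 4W12-OE below 4EV, 2317 of these reached the 4EV level, and 119 passed the ratio. The members were thus chosen on the difference between the groups, and that difference is described below without a test. In the edgeR fit across all genes 115 of the 119 were called lower, against 1005 (6.16%) of the 16317 tested genes, and since the same contrast chose them, nothing is read from their share. The authors' deposited table has 112 members lower at a false discovery rate of 0.05, against 5.89% of all genes, and nothing is read from that share either. The median log2 fold change, 4W12-OE over 4EV, was -2.81 over the members and 0.01 over all tested genes. In the edgeR fit 5.76% of tested genes were higher in 4W12-OE. The number called lower was 524 when 4EV replicate 2 was left out, 588 for 4EV replicate 1, 642 for 4W12-OE replicate 2, 663 for 4W12-OE replicate 1, 693 for 4EV replicate 3 and still 1005 for 4W12-OE replicate 3. All 119 members entered the fit, but 29 reached 1 CPM in no 4W12-OE library and stood in the table only through their 4EV levels. In bulk RNA, fewer cells of a type and less RNA per cell cannot be told apart.

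The members fell into 3 classes by what remained in 4W12-OE. In 15 near silent members every 4W12-OE library was under 0.5 CPM, which is 4.57 to 7.48 reads. In 36 still expressed members every 4W12-OE library held 2 CPM or more, and the remaining 68 members are called low. Per coding length, the median level of the near silent members was 0.225 RPKM (CPM per kilobase of coding length) in 4W12-OE and 4.00 RPKM in 4EV. The low members had medians of 1.44 RPKM in 4W12-OE and 11.6 RPKM in 4EV, and the still expressed members 9.80 and 57.3 RPKM. Over all genes the medians were 23.1 RPKM in 4W12-OE and 22.6 RPKM in 4EV. In 4EV the medians of the near silent and low members were thus below that of all genes and the median of the still expressed members above it, although single low and still expressed members lay on the other side. The class sizes depend on the libraries: without 4W12-OE replicate 2 the same limits gave 28 near silent and 60 still expressed members.

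**Figure D1:**
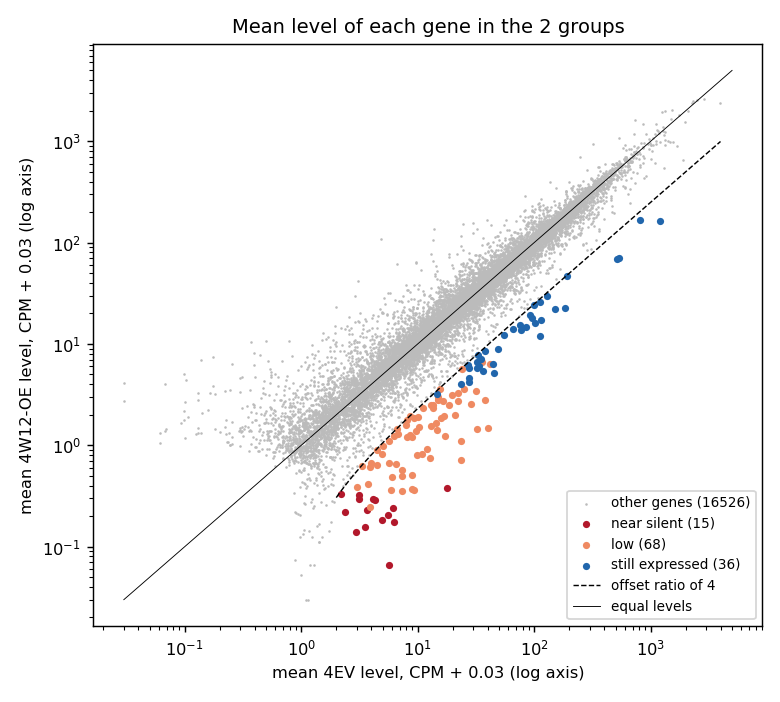
Mean level of every gene in 4W12-OE (vertical axis) against 4EV (horizontal axis), in CPM with 0.03 added on log axes, with the 15 near silent, 68 low and 36 still expressed members in colour and other genes in grey. All members lie under the dashed line, which marks the ratio of 4 used to choose them, and the near silent members sit at 4EV means of 2.15 to 17.9 CPM.

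The near silent genes were low to moderate in 4EV and left at most a few reads in each 4W12-OE library. No member was without reads in all 3 overexpressing libraries, and 7 of the 15 near silent genes had at most 3 reads in each of them. The gene with the highest 4EV level, GSVIVT01000494001, lies on chromosome 19 (14954549 to 14957654, plus strand, 5 exons). It had 0.289, 0.322 and 0.438 CPM in 4W12-OE replicates 1, 2 and 3, against 10.5, 31.3 and 11.8 CPM in 4EV. The groups were far apart, with 4EV replicate 2 well above the other control libraries. Summed reads were 11 in 4W12-OE and 545 in 4EV, which scaled to library totals is a 4EV over 4W12-OE ratio of 55.7 (95% exact counting interval 30.9 to 112). Fractions of reads occurred in 4 libraries of this gene.

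GSVIVT01021182001 (chromosome 10, 2337706 to 2342096, minus strand, 5 exons) came closest to silence. This gene had 0, 1 and 0 reads in 4W12-OE and 45, 93 and 35 reads in 4EV. The only read in 4W12-OE came from replicate 2, and the scaled ratio of 194.5 has a counting interval of 34.5 to 7726. GSVIVT01028236001 (chromosome 7, 4846663 to 4849240, minus strand, 5 exons) had 0, 1 and 3 reads in 4W12-OE and 118, 49 and 24 reads in 4EV. Here replicate 1 was the highest control library, and the scaled ratio was 53.7 (20.6 to 199). The counting intervals cover counting error only, and not the spread between libraries. They were computed for genes chosen on these same reads, so nothing is read from their distance from 1.

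Other near silent genes had no reads in a single overexpressing library. GSVIVT01035834001, a short gene of 378 coding bases on chromosome 4 (4758787 to 4759346, plus strand), had 0.200, 0.429 and 0 CPM in 4W12-OE and 5.54, 7.51 and 5.23 CPM in 4EV. Its control libraries lay close together, and at 16.1 ± 3.28 RPKM (SD, n = 3) it had the highest 4EV level per length among near silent members, against 0.555 ± 0.568 RPKM in 4W12-OE. GSVIVT01031490001 (chromosome 6, 17985014 to 17987506, minus strand, 8 exons, the most in this class) had 0.200, 0.322 and 0 CPM in 4W12-OE and 4.91, 8.52 and 3.18 CPM in 4EV. Replicate 3 of 4W12-OE had no read in either of these genes. GSVIVT01025223001 (chromosome 6, 3075749 to 3076411, plus strand, 2 exons) kept 2, 2 and 1 reads in 4W12-OE, against 74, 38 and 34 reads in 4EV. Its scaled ratio was 32.8 (13.8 to 103).

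At the weak end of the class, GSVIVT01020290001 had the longest coding sequence, 2142 bases in 1 exon (chromosome 19, 21839338 to 21841479, minus strand). It had 0.468, 0.215 and 0.219 CPM in 4W12-OE and 1.65, 2.41 and 2.39 CPM in 4EV, a scaled ratio of 6.54 (3.42 to 13.8). It counts as near silent because it was barely expressed in 4EV as well. GSVIVT01038117001, with the longest intron of the class (8993 bases, chromosome 5, 23590739 to 23600883, plus strand), had 0.468, 0.215 and 0.109 CPM in 4W12-OE against 5.30, 1.97 and 2.10 CPM in 4EV. Over the 15 genes the scaled ratio ran from 6.54 to 194.5.

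**Figure D2:**
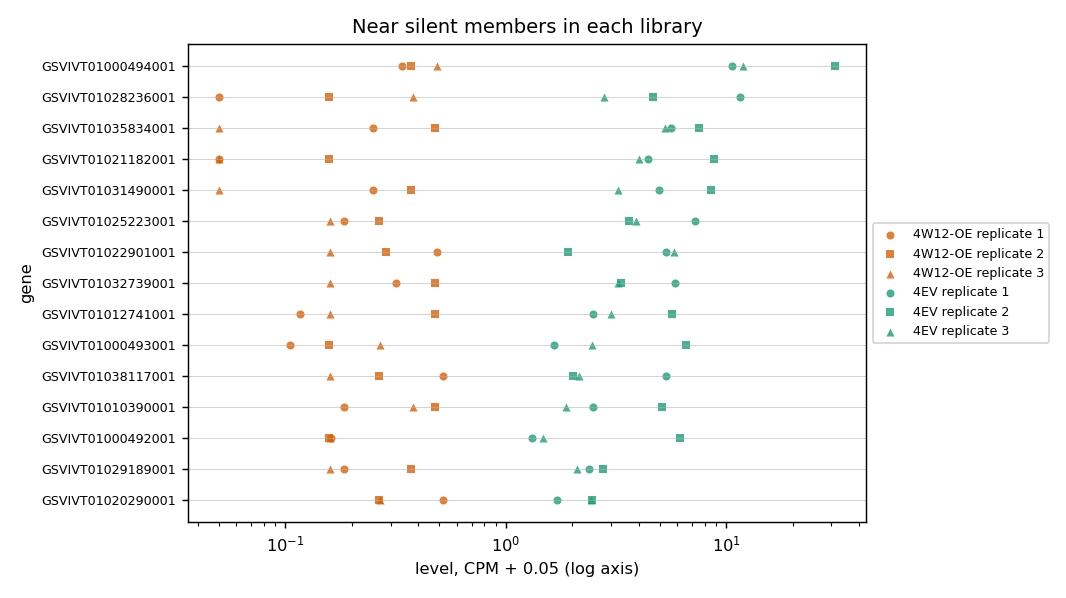
Level of the 15 near silent members in each library, in CPM with 0.05 added on a log axis, with 4W12-OE in orange, 4EV in green and a marker shape for each replicate. Every 4W12-OE point lies left of every 4EV point of its gene, the narrowest gap being 3.53 times in GSVIVT01020290001 and the widest 37.1 times in GSVIVT01021182001.

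The still expressed members include the most abundant genes of the set. GSVIVT01037015001 (chromosome 3, 8895286 to 8912074, minus strand, 4 exons) had 199, 206 and 89.2 CPM in 4W12-OE, against 1573, 1075 and 958 CPM in 4EV. It was the highest gene of the set per length too, at 205 ± 81.7 RPKM in 4W12-OE and 1495 ± 406 RPKM in 4EV (SD, n = 3), and the 4EV mean was 7.29 times the 4W12-OE mean. Even its lowest 4W12-OE library held 815 reads, so that this difference does not rest on low counts. It also has the longest intron among still expressed members, 15853 bases, and fractions of reads in 3 libraries.

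GSVIVT01000592001 (chromosome 1, 6744572 to 6746161, plus strand, 4 exons), with whole reads throughout, had 108, 269 and 120 CPM in 4W12-OE and 805, 980 and 624 CPM in 4EV. In both groups replicate 2 was the highest library, and the 4EV mean was 4.84 times the 4W12-OE mean. GSVIVT01000938001 (chromosome 1, 22072631 to 22073978, minus strand, 6 exons) had 57.5, 122 and 33.0 CPM in 4W12-OE and 534, 648 and 421 CPM in 4EV. GSVIVT01035033001 (chromosome 5, 1049450 to 1053945, plus strand, 8 exons) had 69.6, 123 and 14.2 CPM in 4W12-OE and 468, 688 and 380 CPM in 4EV. In GSVIVT01000938001 and GSVIVT01035033001, 4W12-OE replicate 3 was the lowest overexpressing library and replicate 2 the highest. GSVIVT01018019001 (chromosome 5, 5513894 to 5518077, minus strand, 7 exons) showed the same order, with 26.3, 32.7 and 8.10 CPM in 4W12-OE against 210, 210 and 131 CPM in 4EV.

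The ratios of the still expressed members covered a narrow range. The 4EV mean was 4.10 to 9.50 times the 4W12-OE mean, with a median of 5.54. The highest value belonged to GSVIVT01005841001, a gene of 9 exons on unplaced sequence (chrUn, 22189764 to 22191767, minus strand), at 8.49, 18.99 and 8.10 CPM in 4W12-OE and 94.7, 163 and 80.4 CPM in 4EV. GSVIVT01009658001, a gene of 1 exon on chromosome 18 (10250572 to 10252002, plus strand), had 2.87, 9.55 and 3.17 CPM in 4W12-OE and 45.5, 55.0 and 35.1 CPM in 4EV. The lowest value belonged to GSVIVT01007618001 (chromosome 17, 11179544 to 11181325, minus strand, 2 exons), at 53.9, 73.1 and 14.3 CPM in 4W12-OE and 117, 284 and 179 CPM in 4EV. Its highest 4W12-OE library was within 1.60 times of its lowest 4EV library. The longest coding sequence and most exons of the class were in GSVIVT01031378001 (chromosome 6, 19347375 to 19360240, minus strand, 4383 bases in 21 exons), with 4.31, 6.78 and 7.56 CPM in 4W12-OE and 22.1, 23.1 and 36.0 CPM in 4EV. Here replicate 3 was the highest library of both groups, unlike in most members.

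**Figure D3:**
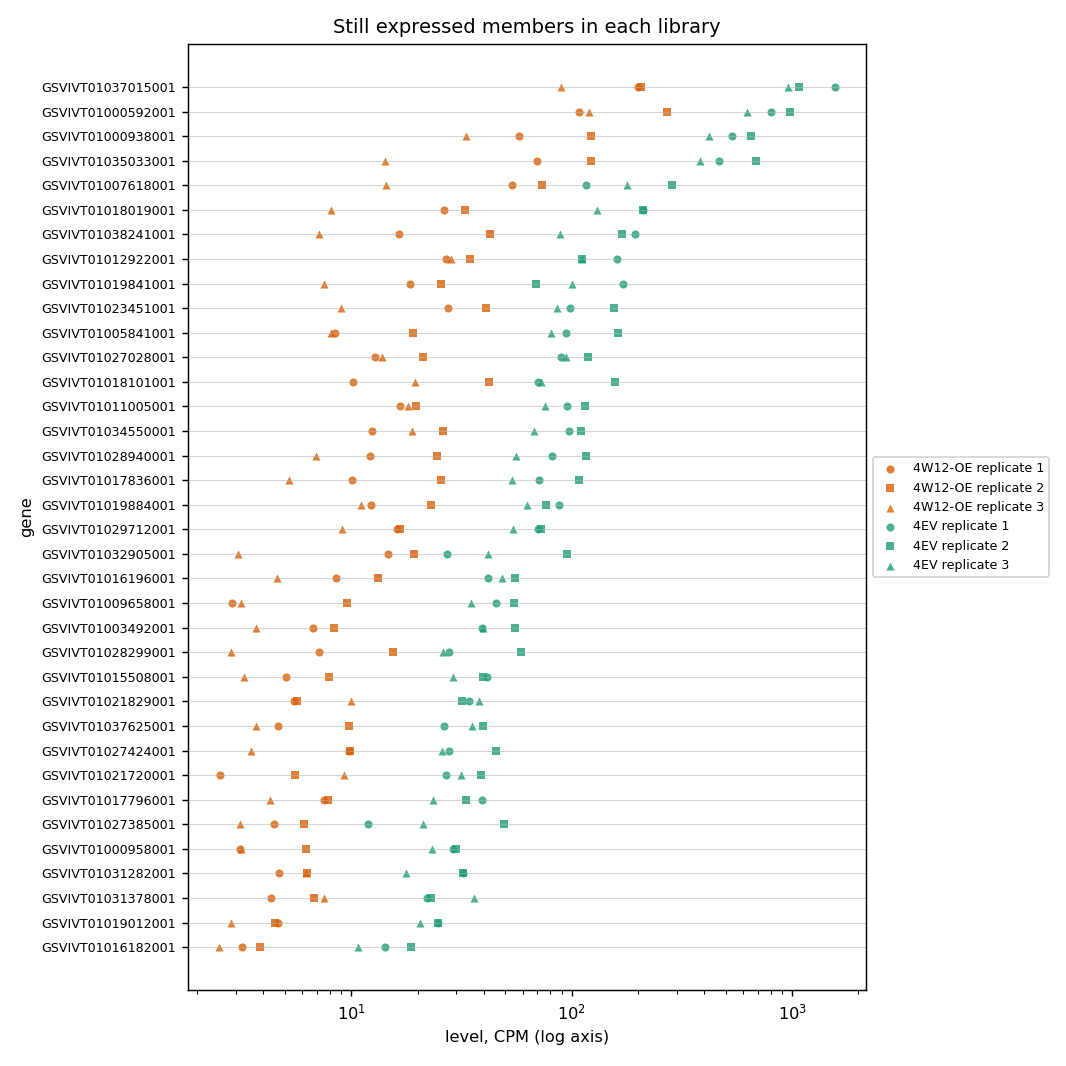
Level of the 36 still expressed members in each library, in CPM on a log axis, with 4W12-OE in orange, 4EV in green and a marker shape for each replicate. The 4EV means run from 14.5 to 1202 CPM, and in most rows the orange square (4W12-OE replicate 2) lies nearest to the green points.

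Among the 68 low members the difference was often larger than among the still expressed ones. The classes were cut on the 4W12-OE level, by which the ratio is divided, so nothing is read from this. The ratio of means had a median of 7.33 and reached 34.3 in GSVIVT01012936001 (chromosome 17, 13836304 to 13836915, plus strand, 1 exon), at 0.334, 1.47 and 0.274 CPM in 4W12-OE and 34.2, 18.99 and 17.8 CPM in 4EV. GSVIVT01017847001 (chromosome 5, 3998940 to 3999518, plus strand, 2 exons, whole reads) was alike, with 0.735, 3.004 and 0.656 CPM in 4W12-OE and 36.1, 53.3 and 31.7 CPM in 4EV. In both genes 4W12-OE replicate 2 was the highest overexpressing library. In GSVIVT01012936001 only that library exceeded the near silent limit of 0.5 CPM, while in GSVIVT01017847001 every 4W12-OE library did. GSVIVT01017847001 had 11, 28 and 6 reads in 4W12-OE. GSVIVT01012191001 (chromosome 1, 679715 to 685333, minus strand, 14 exons) had 1.14, 6.33 and 0.766 CPM in 4W12-OE and 24.1, 57.4 and 32.0 CPM in 4EV. GSVIVT01009579001, with the highest 4EV mean of the class (chromosome 18, 9597349 to 9600920, plus strand, 7 exons), had 4.61, 12.98 and 1.53 CPM in 4W12-OE and 32.7, 67.8 and 25.0 CPM in 4EV. In the last 3 genes replicate 2 was the highest library of each group and 4W12-OE replicate 3 the lowest of its group.

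Just inside the ratio of 4 stood GSVIVT01027191001 at 4.01, with 0.601 CPM in 4W12-OE and 3.31 CPM in 4EV on average, and GSVIVT01027066001 at 4.01, with 1.42 and 6.59 CPM. Just outside stood GSVIVT01007191001 at 3.94, with 18.7 CPM in 4W12-OE and 74.7 CPM in 4EV, and GSVIVT01007192001 at 3.94, with 32.7 CPM in 4W12-OE and 129.5 CPM in 4EV. In all, 39 members had a ratio under 5 and 34 a ratio of 8 or more.

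The 4 members that edgeR did not call (quasi-likelihood test, Benjamini-Hochberg adjusted) were uneven among the 4EV libraries, with replicate 2 the highest in each. GSVIVT01032905001, the only one still expressed, had 14.7, 19.2 and 3.06 CPM in 4W12-OE and 27.1, 95.05 and 42.0 CPM in 4EV. GSVIVT01025344001, which has the most exons of all members (48, chromosome 6, 1704251 to 1743550, plus strand), had 1.87, 1.02 and 0 CPM in 4W12-OE and 2.61, 7.94 and 4.43 CPM in 4EV. The other uncalled genes are next to each other in the order of the measured genes, on the minus strand of chromosome 16, both with fractions of reads. GSVIVT01018547001 (13531881 to 13534050) had 0.456, 1.84 and 0.0547 CPM in 4W12-OE and 2.33, 8.26 and 4.15 CPM in 4EV. GSVIVT01018543001 (13618889 to 13620131) had 0.535, 1.82 and 0.274 CPM in 4W12-OE and 1.90, 9.25 and 2.20 CPM in 4EV, the narrowest gap of all members.

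Within each group the members tended to share an order of the libraries, less so the near silent ones in 4W12-OE. In 4W12-OE, replicate 2 was the highest library in 96 of 119 members (80.7%) and replicate 3 the lowest in 87 (73.1%). Among the 14949 other genes with a 4EV mean of 2 CPM or more these shares were 25.7% and 46.6%. By class, 4W12-OE replicate 2 was the highest in 53.3% of near silent, 82.4% of low and 88.9% of still expressed members. Replicate 3 of 4W12-OE was the lowest in 46.7%, 82.4% and 66.7% of them, the near silent share being close to that of the other genes. In 4EV, replicate 2 was the highest in 85 members (71.4%) and replicate 3 the lowest in 75 (63.0%), against 36.6% and 27.5% of those other genes. Among the 122 genes chosen by the same rule in the other direction, replicate 2 was the highest library in 31.1% within 4W12-OE and in 20.5% within 4EV. The order was read from the same values that chose the members, and it is a description with no test. The choice also rests on single libraries, since the rule gave 166 members without 4W12-OE replicate 2, 94 without 4W12-OE replicate 3 and 99 without 4EV replicate 2. Replicate 2 of 4W12-OE is also the overexpressing library nearest to 4EV over all genes, and replicate 3 the farthest, and the part of this in the members' order was not tested.

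Summed over the 119 members, expression was 923, 1521 and 575 CPM in 4W12-OE replicates 1, 2 and 3, and 6564, 7434 and 4961 CPM in 4EV. The still expressed members made up most of these sums, with 815, 1335 and 518 CPM in 4W12-OE against 5599, 6154 and 4200 CPM in 4EV. The near silent members together held 2.96, 3.99 and 2.30 CPM in 4W12-OE against 72.2, 99.8 and 54.9 CPM in 4EV. The highest library was thus 2.65 times the lowest in 4W12-OE and 1.499 times in 4EV over the whole set. Since the rule keeps the groups of each member apart, their sums cannot overlap. Set against the 4EV mean with the same 0.3 CPM offset, 116 members were at least 4 times lower in 4W12-OE replicate 3, 106 in replicate 1 and 74 in replicate 2. Of the 15 near silent genes 15 met that limit in replicate 2 and 14 in replicate 1. Of the 36 still expressed genes 17 met it in replicate 2 and 33 in replicate 1. The classes were cut on these same 4W12-OE levels, so nothing is read from the difference between them.

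Some members had a single control library well above the other 4EV libraries. By the rule, every 4EV library of these genes still lay above every 4W12-OE library. In 23 members 4EV replicate 2 was at least 2 times the next 4EV library, against 3 members for replicate 1 and 0 for replicate 3. Among the other genes at 2 CPM or more, 0.482% had such a peak in 4EV replicate 2. GSVIVT01010605001 (chromosome 16, 16096085 to 16099561, plus strand, 9 exons) had the highest coefficient of variation within 4EV, 1.01, with 0.735, 0.322 and 0.109 CPM in 4W12-OE and 1.75, 8.08 and 1.36 CPM in 4EV. Among still expressed members the spread within 4W12-OE was widest in GSVIVT01038241001 (chromosome 5, 24553038 to 24554976, minus strand, 4 exons), at 16.5, 42.7 and 7.11 CPM, with 193, 170 and 88.6 CPM in 4EV. It was followed by GSVIVT01035033001, given above, and by GSVIVT01017836001 (chromosome 5, 3900776 to 3903733, plus strand, 18 exons), at 10.1, 25.5 and 5.25 CPM in 4W12-OE and 70.9, 108 and 53.5 CPM in 4EV.

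Members had a higher median spread between control libraries than other genes of the same level. The genes chosen by the same rule in the other direction also had a high spread, but they were not compared at the same level. Their median 4EV level was 1.21 CPM, against 29.7 CPM for the other genes at 2 CPM or more. The median coefficient of variation was 0.622 within 4W12-OE and 0.328 within 4EV over the members, 0.318 and 0.445 over the 122 genes at least 4 times higher in 4W12-OE, and 0.114 and 0.0958 over other genes at 2 CPM or more. Within 4W12-OE the median level was 1.82 CPM over the members and 30.8 CPM over the other genes at 2 CPM or more. The spread within 4W12-OE was not compared at the same level. A rule on the size of the difference uses the same library values, so the spread is a description of the chosen genes. At 4EV means of 2 to 5 CPM the median coefficient of variation within 4EV was 0.480 in 20 members and 0.214 in 1670 other genes. At 20 to 50 CPM it was 0.258 in 29 members and 0.0855 in 3825 other genes, and at 100 CPM or more 0.309 in 13 members and 0.0646 in 2688 other genes. The difference held in each of the 6 level ranges examined, and was described without a test.

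**Figure D4:**
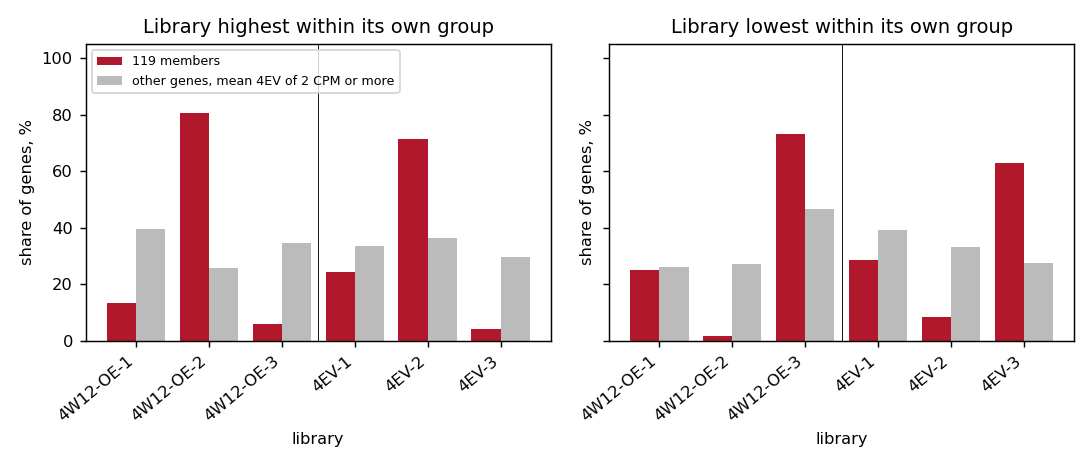
Share of genes, in percent, for which a library is the highest (left) or lowest (right) of its own group, for the 119 members (red) and for the other genes with a 4EV mean of 2 CPM or more (grey). The tall red bars are 4W12-OE replicate 2 (80.7%) and 4EV replicate 2 (71.4%) on the left, and replicate 3 of both groups (73.1% and 63.0%) on the right.

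In structure the members were compact genes. Their median span from first to last coding base was 2084 bases, against 4239 bases over all genes, with a median of 4 exons against 6. The longest intron had a median of 579 bases in members and 1474 bases in all genes, while median coding length was close, at 1032 and 1080 bases. The shorter span therefore came with shorter introns and fewer exons more than with shorter coding sequence. Longest introns under 200 bases were found in 28 members (23.5%), against 9.60% of all genes, introns of 10 kb or more in 4 members (3.36%) against 6.57%, and more than 10 exons in 12 members (10.1%) against 20.0%.

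The 3 classes were alike in exon number and near each other in intron length, with no test run between them. The median longest intron was 727 bases in near silent, 566 bases in low and 554 bases in still expressed members, and each class had a median of 4 exons. None of the 15 near silent genes had more than 10 exons or an intron of 10 kb. The 122 genes that met the same rule in the other direction, higher in 4W12-OE, also had short introns, with a median longest intron of 752 bases. Their median of 6 exons and 1305 coding bases was that of larger genes, with a median span of 2940 bases. Whether members differ from them was not tested. Extremes among the low members were GSVIVT01012932001, with 6288 coding bases in 1 exon, and GSVIVT01018446001, with an intron of 34231 bases on chromosome 16 (14995924 to 15032836, minus strand). GSVIVT01018446001 had 2.67, 2.57 and 0.219 CPM in 4W12-OE and 9.52, 22.5 and 15.0 CPM in 4EV.

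**Figure D5:**
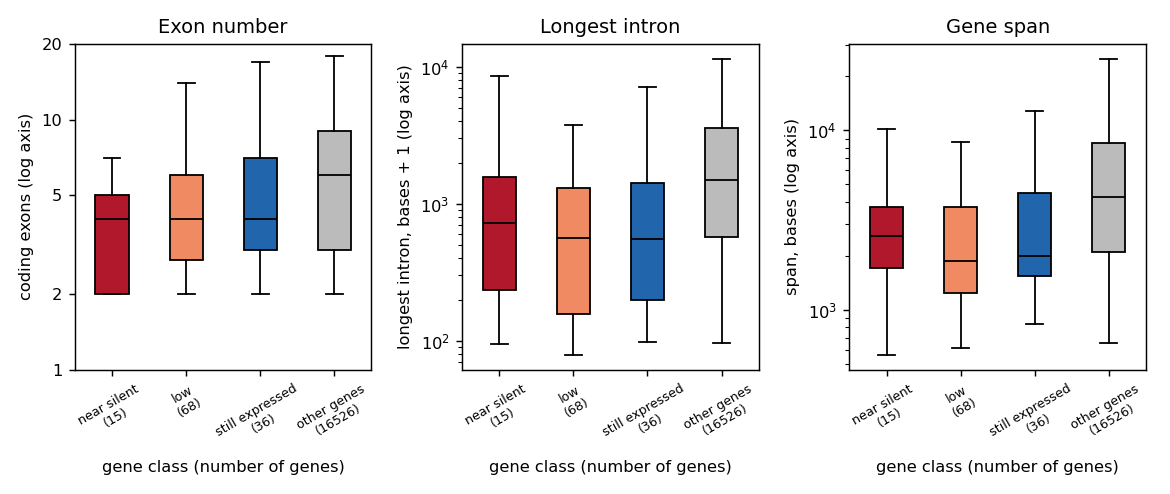
Coding exons, longest intron (bases with 1 added) and span (bases) of the 3 classes of members and of the other 16526 genes, on log axes. Boxes give the middle 50% of genes with the median as a line, and whiskers run from the 5th to the 95th percentile; each class of members has a lower median than other genes in all 3 panels.

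Members lay on all 19 chromosomes. Chromosome 19 held 9 members among 718 genes (1.25%) and chromosome 9 held 1 among 652 (0.153%), against 0.715% of all genes. Of the 15 near silent genes 4 were on chromosome 19, and 11 of the 15 were on the plus strand, against 50.4% of all genes. Both counts include the same run of 3 neighbouring genes, described below. Sequences not placed on a chromosome (chrUn) or labelled random held 4 members (3.36%), against 8.34% of all genes. The span of no member overlapped that of another gene in the table.

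Some members were neighbours in the order of the measured genes along the chromosomes. In that order 23 members formed 10 runs, 3 of them with 3 members, and within each run all members shared a strand. The measured genes all reached 1 CPM in 2 or more libraries, so gene models below that level may lie between neighbours. Gaps within the runs ranged from 35 to 178342 bases. Fractions of reads occurred in 21 of these 23 genes, against 27 of the 96 other members, so part of the reads in a run may be shared between its genes or with other models. The part of shared reads in the runs was not tested. The 204 direct neighbours that were no members had a median log2 fold change of -0.09, against 0.01 over all tested genes outside the set. Of these neighbours 22 (10.8%) were called lower in 4W12-OE and 5 (2.45%) higher. Over all tested genes outside the set the shares were 5.49% lower and 5.80% higher.

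The only run of near silent genes was on the plus strand of chromosome 19, where GSVIVT01000492001 (14902634 to 14920509), GSVIVT01000493001 (14920741 to 14923796) and GSVIVT01000494001 followed each other. GSVIVT01000492001 had 0.112, 0.107 and 0.109 CPM in 4W12-OE and 1.26, 6.10 and 1.42 CPM in 4EV. GSVIVT01000493001 had 0.0555, 0.107 and 0.219 CPM in 4W12-OE and 1.61, 6.51 and 2.42 CPM in 4EV. All 3 genes peaked in 4EV replicate 2 and all had fractions of reads. Together they held 0.456, 0.536 and 0.766 CPM in 4W12-OE, against 13.4, 43.9 and 15.7 CPM in 4EV.

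On the plus strand of chromosome 2, GSVIVT01019840001 (3796865 to 3797542), GSVIVT01019841001 (3799837 to 3800230) and GSVIVT01019848001 (3821960 to 3822628) were short genes of 2 exons each. They followed another order of the control libraries, with replicate 1 highest in each. GSVIVT01019841001 had 18.5, 25.5 and 7.495 CPM in 4W12-OE and 170, 69.0 and 101 CPM in 4EV. GSVIVT01019840001 had 3.14, 1.93 and 1.86 CPM in 4W12-OE and 16.6, 9.63 and 13.98 CPM in 4EV, and GSVIVT01019848001, which had whole reads, 1.14, 2.15 and 2.52 CPM in 4W12-OE and 21.1, 13.1 and 16.6 CPM in 4EV.

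The run on the plus strand of chromosome 17 was spread over more than 200 kb and joined genes of unlike structure and level. GSVIVT01012922001 (13575609 to 13588412, 3 exons) had 26.8, 34.5 and 28.4 CPM in 4W12-OE and 161, 111 and 111 CPM in 4EV. GSVIVT01012932001 (13766755 to 13773042) had 0.468, 0.823 and 0.566 CPM in 4W12-OE and 4.94, 11.3 and 3.30 CPM in 4EV, and the run ended with GSVIVT01012936001, described above. The closest neighbours of the set were GSVIVT01014184001 (1321003 to 1322438) and GSVIVT01014185001 (1322474 to 1322893) on the minus strand of chromosome 19, 35 bases apart. The first had 5.51, 12.4 and 1.91 CPM in 4W12-OE and 24.3, 59.5 and 23.7 CPM in 4EV. The second, with only 81 coding bases, had 3.81, 4.93 and 0.985 CPM in 4W12-OE and 14.3, 35.8 and 16.3 CPM in 4EV. Their libraries ranked alike within 4W12-OE, and both peaked in 4EV replicate 2.

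Neighbouring members on the same strand sometimes had the same structure. GSVIVT01028174001 (4416757 to 4417800) and GSVIVT01028176001 (4422885 to 4423928) on the plus strand of chromosome 7 each had 744 coding bases in 4 exons, a longest intron of 102 bases and a span of 1044 bases. They had 1.97, 3.74 and 1.13 CPM and 0.880, 2.07 and 0.274 CPM in 4W12-OE, against 11.4, 12.9 and 8.80 CPM and 7.26, 5.92 and 3.62 CPM in 4EV. GSVIVT01031282001 (624391 to 625898) and GSVIVT01031278001 (645434 to 646929) on the minus strand of chromosome 14 each had 705 coding bases in 4 exons. All 4 genes had fractions of reads in 4 to 6 libraries, so the level of each member of these pairs is uncertain. Summed over each pair, the levels were 2.85, 5.81 and 1.40 CPM in 4W12-OE against 18.7, 18.8 and 12.4 CPM in 4EV on chromosome 7, and 6.61, 8.76 and 7.59 CPM against 40.6, 45.0 and 22.2 CPM on chromosome 14. These pairs were singled out after their values were seen.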

How the data were processed

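RNA-seq of 6 callus libraries (3 4W12-OE, 3 4EV) was used as deposited. The submitters' processing notes list Trimmomatic, HISAT2 2.0.5 and edgeR with no roles; no source used here states the read counter, genome build, annotation or strand use. Per the file headers the deposited table gives reads per gene in each library, treated as an estimated count since fractions occur (tolerance 1e-06). RPKM values had been made by the authors from those reads, and recomputing them from reads, length and totals gave a largest difference of 4.7e-06. The authors' own comparison was deposited as log2 fold change and log2 CPM, with an F score, p-value and false discovery rate. Every length is a multiple of 3 and is called coding length. Each gene of the table reached 1 CPM in 2 or more libraries.

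CPM was computed from column sums and RPKM from CPM and coding length. Rounded reads were tested in R 4.3.3 by edgeR 4.0.16 (TMM factors 0.979 to 1.03, filterByExpr at a minimum count of 10, two-sided quasi-likelihood F test, no covariate, Benjamini-Hochberg adjusted p under 0.05 over 16317 genes), after the script was tested on simulated data. A library's 3 reads stand for 0.200 to 0.341 CPM. Counting intervals are exact binomial (95%) and cover counting error only. Coordinates are those of the file.

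The members, classes and comparisons were chosen with earlier results of these data known. Named genes are those with the highest 4EV level or ratio in each class, at the ratio's limit, in runs of 3 or the closest pairs, at the extremes of structure and spread, or not called by edgeR; exceptions are marked. Gene lists by function were not run, since identifiers carry no descriptions. Alternatives were DESeq2 1.42.0, limma-voom 3.58.1, other scalings and filters, other limits of the rule, a replicate block and each library left out.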

Additional observations from a re-analysis of the deposited data

How the results depend on the processing

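The rule gave 87 to 137 members with other offsets, TMM scaling, other 4EV minimums or overlap allowed, and 94 to 166 with single libraries left out, of which 90 to 118 were among the 119. With a ratio of 3 or more it gave 205 members (80 still expressed, 193 called lower), and with 8 or more 34 (8 near silent, 3 still expressed, 34 called lower, median longest intron 350 bases). Whole-read genes alone gave 71 members by construction, with 8 near silent, 18 still expressed and 71 called lower. The near silent class held 9 genes with an offset of 1 CPM, 5 with a 4EV mean of 5 CPM or more, 23 with 1 CPM or more, 7 with at most 3 reads in every 4W12-OE library, 4 with each under 0.25 CPM, 29 with each under 1 CPM, and 13 to 28 with single libraries left out. The still expressed class held 56 genes at 1 CPM or more, 20 at 5 CPM or more, and 29 to 60 with single libraries left out. The cause of these shifts, beyond the moved limits, was not tested. Over all alternatives of the rule that kept 6 libraries, 4W12-OE replicate 2 was the highest in 75.1% to 85.1% of members and 4EV replicate 2 in 67.3% to 80.3%.

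Of the 119 members, DESeq2 called 117 lower and limma-voom 113, against 1211 and 993 of all genes. Fits without single libraries called 97 to 112 of the 119. With rule and fit both on the remaining libraries, 87 to 152 members were called. The same contrast chose the members, so nothing is read from these counts. Over all genes, fits without single libraries called 524 to 1005 lower and 457 to 975 higher, and whole-read genes alone 589 lower. The median log2 fold change of all genes stayed within 0.0341 of 0 in each fit. Deviations of same-numbered libraries correlated at -0.063, 0.325 and 0.175, and pairing by number was not assumed. With the replicate block 118 members were called lower, as were 1129 of all genes, and 1123 were higher. No named gene changed direction in any fit run. Each was chosen with non-overlapping groups, so nothing is read from this. Depth limits the near silent class, since 0.5 CPM is 4.57 to 7.48 reads of a 4W12-OE library. The alternatives for intron length, for the order of the libraries and for whole-read genes over the whole table were chosen after seeing the data.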
